A study of Rattus norvegicus with 2 samples.

Results

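Circular RNAs (circRNAs) that were listed in the lung of LPS rats and not in the lung of Sham rats were described. They were chosen by their measured values. A circRNA was taken if its Sham value equalled the fill-in of 0.001 that the table gives to circRNAs it does not list in a library, and its LPS value was at least 95, which is 5 or more junction reads. The rule took 464 of the 4734 circRNAs of the table, a share of 9.80%. The mirror rule (LPS value at the fill-in, at least 5 Sham reads) took 390, a share of 8.24%. Since the values of both libraries chose the members, nothing is read from these shares. SD rats received PBS (Sham) or LPS at 2 mg/kg (LPS) by intratracheal spray, and lung tissue was taken after 24 h. The study used 12 rats in 2 groups, and each group has 1 library. With 1 library per group no replicate error can be given, and a difference between the libraries could not be checked in replicates. How many rats a library holds is not stated in the sources used here. According to the labels, ribosomal RNA was removed, linear RNA was digested with RNase R and the libraries were strand-marked, whereas the methods name a SmartPCR kit and the enzyme RsaI. The submitters' processing notes name CASAVA 1.8, BWA and the genome build rn6, and coordinates of circRNAs are in that build as deposited.

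A circRNA forms when a splice donor is joined back to an acceptor upstream of it, which closes the exons between them into a ring without free ends. RNase R degrades linear RNA from its 3′ end and spares such rings. A read across the back-splice junction identifies a circRNA, and 1 host gene can give several rings that share a splice site. LPS, a component of the outer membrane of Gram-negative bacteria, is sensed by Toll-like receptor 4 on macrophages and other lung cells, and neutrophils and monocytes then enter the airspaces. In bulk tissue, a larger number of cells of a type and more RNA per cell cannot be told apart.

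The values are CPM, junction reads scaled to a total of 1000000 in each library. The Sham library held 38112 junction reads, at 26.2 CPM per read, and the LPS library held 52505, at 19.05 CPM per read. The lowest listed value was 2 reads in both libraries, so the fill-in was taken to stand for 0 or 1 read. The rules by which the circRNA caller leaves a junction out are not known here, so this reading was not tested. On this reading, the fill-in allows up to 4.74 reads (one-sided 95% Poisson limit for 1 read), or 124 CPM in Sham. Intervals are 95% Wilson intervals. Intervals and limits cover counting error only. Reads copied by PCR were not marked by molecule and may count 1 molecule more than once.

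The members were mostly circRNAs of few reads. Together they held 6118 reads, or 11.7% of the LPS junction reads (interval 11.4 to 11.9%). The median member had 9 reads (171 CPM), with quartiles of 6 and 16 reads, and the range was 5 to 163 reads (95.2 to 3104 CPM). Of the 464, 82 had at least 20 reads and 3 had at least 100. The 10 members with the most reads, including 1 of several host names, held 782 reads, 12.8% of the members' reads. Just inside the rule were 87 members with 5 reads. Just outside it were 175 circRNAs at the Sham fill-in with 4 LPS reads (76.2 CPM), and 74 circRNAs with 2 Sham reads (52.5 CPM) and at least 5 LPS reads. The LPS value of 143 members (5 or 6 reads) did not exceed the 124 CPM that the Sham fill-in allows, and for these no fold is given. The other 321 members were above it, 155 of them by at least 2-fold. Folds below are the listed LPS value over this limit. They are lower bounds only as to the Sham value, since the counting error of the LPS value is left out.

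The member with the most reads came from Dock6, which encodes an exchange factor that activates the small GTPases Rac1 and Cdc42. This circRNA (chr8:22862817-22863273, 457 nt) had 163 LPS reads, 3104 CPM (interval 2664 to 3618), which is 24.9-fold the Sham limit. No Dock6 junction was listed in Sham. The Zc3h4 circRNA (chr1:78369712-78370333, 622 nt) followed with 115 reads, 2190 CPM (1825 to 2628), 17.6-fold the limit. Zc3h4 encodes a zinc-finger protein that limits transcription of non-coding RNA, and this was the only junction listed for it in either library. The Riok1 circRNA (chr17:27440591-27442626, 2036 nt) had 103 reads, 1962 CPM (1618 to 2378), 15.8-fold the limit. Riok1, an atypical kinase needed for maturation of the small ribosomal subunit, differed from both in having another circRNA, of 276 nt, in Sham and in LPS.

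The counts then fell without a clear gap, since the interval of Riok1 overlapped that of the next member. LOC100362999 (chr6:59301040-59301308) had 83 reads, 1581 CPM (1276 to 1959), and Acot9 (chrX:43575307-43575817), a mitochondrial acyl-CoA thioesterase, had 82 reads, 1562 CPM (1259 to 1938). Their intervals overlapped almost entirely. Uxs1, the enzyme that makes UDP-xylose for the linker of proteoglycan chains, had a member with 64 reads, 1219 CPM (955 to 1556). Every other member with a single host name had 42 reads or fewer. The next were Rnf13, a ubiquitin ligase of endosomal membranes, with 42 reads (800 CPM, 592 to 1081), and the nocturnin gene, listed under its older symbol Ccrn4l, with 41 reads. Laptm5, a lysosomal membrane protein of blood cells, also had 41 reads (781 CPM, 576 to 1059). These last 3 could not be ordered within their counting error. The remaining members among the 20 with the most reads and a single host name had 28 to 36 reads and lower bounds of 4.28-fold to 5.51-fold. They came from Ltbp1, Capzb, Nbeal1, Arcn1, Pdpk1, Tlk2, Pdia5, Sbno1, Ccdc104, Susd1 and Gmds, and Tcaim was tied with Gmds at 28 reads. Among them, Capzb encodes the beta subunit of the protein that caps actin filaments and Pdia5 a disulfide isomerase of the endoplasmic reticulum. Of the 20, 9 had no other junction of the host in the table, 7 had another junction listed in Sham and 4 had other junctions in LPS alone.

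The span of a member, from junction start to junction end with introns included, had a median of 3070 nt (interval 2426 to 4052). The median was 4394 nt (4172 to 4618) over all circRNAs and 4648 nt (3870 to 5441) for the mirror set. It was 4203 nt (3897 to 4580) for circRNAs listed in both libraries, and 3893 nt (3494 to 4203) for those of them with at least 5 LPS reads. The members' median was the lowest of these, but its interval lay apart only from that of all circRNAs. Spans of at most 500 nt made up 93 of the 464 members, 20.04% (16.7 to 23.9%). The same share was 12.5% (11.6 to 13.4%) over all circRNAs, 10.4% (9.02 to 11.9%) among the 1757 circRNAs listed in both libraries, and 14.9% (11.7 to 18.8%) in the mirror set. The members' interval did not overlap those of all circRNAs and of shared circRNAs, but it did overlap that of the mirror set. Spans of more than 25 kb made up 8.84% of members (6.58 to 11.8%) and 11.1% of all circRNAs, which did not differ beyond the interval. Among the 82 members with at least 20 reads, 14.6% (8.57 to 23.9%) were that long. No annotation of rn6 was used here, so the exons inside a span are not known.

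The shortest members with a single host name were those of Kctd11 and Zwint, each 140 nt, and of E4f1, 143 nt. They had 11, 17 and 19 LPS reads. Zwint encodes a kinetochore protein, and none of these hosts had another junction in the table. The longest were those of Lpp, a LIM protein of focal adhesions (90054 nt, 23 reads), LOC100361584 (74439 nt, 6 reads) and Nox4, an NADPH oxidase that makes hydrogen peroxide (74242 nt, 27 reads). All of these long members had hosts with another junction listed in Sham. The read numbers of the shortest and the longest members overlapped.

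Whether the host was already a source of circRNA in Sham was counted next. A gene name other than that of a small RNA family was given for 424 members. Of these, 215 (50.7%, 46.0 to 55.4%) had a host with another junction listed in Sham, 32 had a host with other junctions listed in LPS alone, and 177 (41.7%, 37.1 to 46.5%) were the only junction of their host in the table. The share with another Sham junction was 56.2% over all circRNAs, and 61.4% for circRNAs listed in both libraries. In the mirror set, 54.4% had a host with another junction listed in LPS. The share was thus lower in members than in circRNAs listed in both libraries, and the intervals of members and mirror set (49.2 to 59.5%) overlapped. Names repeated at distant sites and small RNA names bear on this share. With small RNA family names counted as hosts, an alternative chosen after seeing the data, it was 58.7%, beside 62.5% over all circRNAs counted the same way. By overlap of spans in place of names, it was 30.2% of the 464, beside 36.5% over all circRNAs, and 44.6% for those listed in both libraries. In the mirror set, 32.3% overlapped a circRNA listed in LPS.

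The other junctions of these hosts were then summed. Since the rule fixed the direction of the members, these sums were set beside other hosts and not beside the members. Leaving members out, 150 hosts had other junctions with a Sham listing and at least 10 reads over both libraries. Their summed reads, with 0.5 reads added, were at least 2-fold higher in LPS for 21 hosts (14.0%) and at least 2-fold lower for 46 (30.7%). Over all 1046 such hosts of the table, the shares were 13.3% and 34.0%. Hosts with other junctions in LPS alone are left out of both. Taking out the members but keeping junctions at the LPS fill-in, with a Sham listing required, leans both sets towards lower in LPS. Only the comparison between the sets is therefore read. The median ratio of LPS to Sham CPM was 0.794 for the members' hosts and 0.726 for all hosts, so by these sums the hosts of members lay near the background. Over circRNAs listed in both libraries the median ratio was also 0.726. On the CPM scale the lower class was thus easier to reach than the higher, in both sets of hosts. Fcho2, a protein of early clathrin-coated pits, is an example of a host with many Sham reads. Its member of 380 nt had 23 LPS reads, while another Fcho2 junction, which shares no end with it, had 307 Sham reads (8055 CPM) and 504 LPS reads (9599 CPM). Tlk2, a kinase that acts in chromatin assembly during DNA replication, also had other junctions in both libraries. Its member had 30 LPS reads, while its 2 junctions listed in Sham were listed in LPS too, with 22 and 6 Sham reads and 21 and 4 LPS reads.

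A start or an end was shared to the base with a circRNA listed in Sham by 116 of the 464 members, 25% (21.3 to 29.1%). This share was 30.6% (29.3 to 32.0%) over all circRNAs and 39.9% (37.6 to 42.2%) among circRNAs listed in both libraries. In the mirror set, 23.8% (19.9 to 28.3%) shared an end with a circRNA listed in LPS. The intervals of members and mirror set overlapped, and both lay below that of shared circRNAs. The 116 members formed 155 pairs with 152 different partners. The start was shared in 87 pairs and the end in 68, and the partner was the longer circRNA in 92 and the shorter in 63. Of the partners, 101 were also listed in LPS and 51 in Sham alone. Partners had a median of 6 Sham reads. The typical partner was thus itself a circRNA of few reads.

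The partner with the most Sham reads was a circRNA of Gtf2i, a gene for a general transcription factor. It spanned 5156 nt and had 432 Sham reads (11340 CPM) and 584 LPS reads (11120 CPM). The member that shared its end, chr12:25442734-25447480, had 6 LPS reads. The member was thus a minor product beside a circRNA at about the same level in both lungs. In Uxs1, the member of 64 reads (chr9:11217254-11219449) shared its end with 4 circRNAs listed in Sham. The one with the most reads, of 10416 nt, had 143 Sham reads (3752 CPM) and 283 LPS reads (5390 CPM). Here the member was not minor, since it ranked below only 1 other Uxs1 circRNA in LPS. For Rps6kb1, the kinase that phosphorylates ribosomal protein S6, the member of 19 reads shared its start with a circRNA of 135 Sham and 140 LPS reads. The Riok1 member shared its start with the 276-nt circRNA, which had 24 Sham reads (630 CPM) and 45 LPS reads (857 CPM). In Riok1 the order of these circRNAs differed between the libraries, with the longer one at the fill-in in Sham and ahead in LPS. Members of 6 reads shared an end in Rnf169 and Kif1b with circRNAs of 51 and 48 Sham reads.

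Some members differed by a few bases from a circRNA that Sham did list. A Sham junction lay within 20 bases at both ends for 6 members. The Gmfb member (chr15:23605382-23606632, 16 LPS reads) had the same start as a circRNA whose end lay 2 bases away, and that circRNA had 228 Sham and 569 LPS reads. For the members of Ptms, Dpp8 and Vti1a, the ends that differed were 6, 3 and 11 bases apart. For such pairs, the choice of the junction position by the circRNA caller bears on whether a circRNA counts as absent from Sham, and this was not tested. The Dpp8, Vti1a and Ptms pairs were named after their values were seen, and the Vti1a member has several names in the table.

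Among members with a single host name, 18 hosts had 2 members each, and in 5 of these hosts the members shared an end. Dock6 had its member of 163 reads and another of 5 reads from the same start. Arcn1, the delta subunit of the coatomer that coats Golgi vesicles, had members of 32 and 15 reads with a common end. No junction of either host was listed in Sham. Rnf13 had members of 42 and 8 reads far apart in the gene. Members of 64 and 5 reads came from Uxs1, and of 21 and 9 from Ago3, an Argonaute protein that binds microRNAs. For Wdr33, the subunit of the polyadenylation complex that reads the AAUAAA signal, they had 22 and 8 reads. Med1, a Mediator subunit, had members of 25 and 5 reads, and Ank3 and Col5a2 each had members of 20 and 5 reads. In all of these hosts other than Arcn1 and Ago3, the lesser member had 5 to 8 reads, near the threshold.

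Hosts were then grouped by function in 15 lists of gene symbols. Of the 464 members, 178 fell in at least 1 list and 286 in none. The share of a list's circRNAs that were members ran from 5.88% (growth factor, TGF-beta and Wnt signalling) to 13.4% (cell cycle and DNA repair). For all 15 lists the interval held the 9.80% of the whole table. No list thus stood apart from the table in its share of members at this depth, and the lists describe which hosts the members came from. Members outnumbered circRNAs of the mirror set in 10 lists and were fewer in 5. Over the whole table members were also the more numerous, with 464 beside 390, so nothing is read from this tally. Counts of a list include members with several host names, and the members named in it are those with the most reads among single host names.

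Innate immune, NF-kB and MAPK signalling hosts gave 13 members of 98 circRNAs, 13.3% (7.92 to 21.4%). The most reads came from Csf3r, the receptor for granulocyte colony-stimulating factor on neutrophils. Its circRNA (chr5:144038462-144038971, 510 nt) had 25 reads, 476 CPM (323 to 703), 3.82-fold the Sham limit. Ripk2, the kinase that relays signals from the bacterial sensors Nod1 and Nod2, had 24 reads, and Map3k3, a kinase upstream of the ERK5 pathway, had 20. Csf3r had no other junction in the table, and Ripk2 none in Sham. The next were Traf4 and Syk with 17 reads each and Il1r1, the interleukin-1 receptor, with 8, named after their values were seen. Syk relays signals of immune receptors with tyrosine motifs. The list pattern also took Mapkap1, a subunit of the mTORC2 complex.

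Protein kinases gave 22 members of 195 circRNAs, 11.3% (7.57 to 16.5%). Riok1, Tlk2 and Map3k3 led, followed by Rps6kb1 with 19 reads. The list also held Prkar2a, a regulatory subunit. Cell cycle and DNA repair hosts gave 13 members of 97 (8.002 to 21.6%). After Tlk2 came Cdc14a, a protein phosphatase, with 25 reads, and Top2a, the DNA topoisomerase of dividing cells, with 24 reads. Both had other junctions in Sham, with 6 and 10 reads.

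Ubiquitin ligases and deubiquitinases gave 20 members of 160 circRNAs, 12.5% (8.24 to 18.5%). After Rnf13 came Herc1, a very large HECT-type ligase, with 26 reads, and Rnf10 with 21 reads at a span of 159 nt. Vesicle and membrane trafficking gave 22 of 212, 10.4% (6.95 to 15.2%). Its leading members were Nbeal1 with 33 reads, Wdfy1 with 17 and Ap3s1, a subunit of the AP-3 adaptor, with 15. The median trafficking member had 7 reads.

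Actin and membrane cytoskeleton hosts gave 18 members of 208, 8.65% (5.54 to 13.3%). Dock6 alone held 168 of the 377 member reads of the list in its 2 members. Lpp and Nav1 had 23 reads each. Matrix and cell adhesion gave 15 members of 157, 9.55% (5.88 to 15.2%). Its leading members were Ltbp1, which binds latent TGF-beta in the matrix, with 36 reads, Tnxb, the matrix protein tenascin-X, with 25 reads, and, with 23 reads each, Itgal, the alpha chain of the leukocyte integrin LFA-1, and Adamts5, a protease that cleaves aggrecan. The 5 other Ltbp1 junctions listed in Sham held 18 reads there and 3 in LPS, so the member was the main Ltbp1 circRNA of the LPS library.

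Splicing and RNA-binding hosts gave 12 members of 156, 7.69% (4.46 to 12.96%). Ago3 and Tnrc6b, which work together in silencing by microRNAs, had members of 21 and 18 reads, and Mettl3, the enzyme that methylates adenosine in mRNA, had 15. Chromatin and histone modifiers gave 11 of 168, 6.55% (3.69 to 11.3%). They were led by Jmjd1c with 21 reads and by Phf3 and Rbbp6 with 11 each, and Rbbp6 is a ubiquitin ligase that the name pattern of the list took in. Zinc-finger hosts gave 8 of 112, 7.14% (3.66 to 13.5%), and the Zc3h4 circRNA held 115 of their 195 member reads. Among single host names, Zfx and Zfp280c came next with 6 reads each, while members with several names had up to 28.

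The smaller lists had few members. Cilia, centrosome and microtubule hosts gave 6 of 80, led by the dynein heavy chain gene Dync1h1 with 23 reads and the kinesin genes Kif5b and Kif26b with 15 and 12. Transporters and ion channels gave 8 of 120, led by Atp9b with 19 reads, Slc27a6, a fatty acid transporter, with 14 and, with 8 each, the calcium channel gene Cacna1c and Slc41a2. Lipid and mitochondrial metabolism gave 9 of 99, led by Tcaim with 28 reads, Pla2g2a, a secreted phospholipase A2 that attacks bacterial membranes, with 19 and Osbpl1a with 14. Growth factor, TGF-beta and Wnt signalling gave 6 of 102. Beside Ltbp1, these were led by Smad4, the common partner of receptor-activated Smads, with 8 reads and the Wnt co-receptor Lrp6 with 7. Phosphoinositide kinases and phosphatases gave 4 of 51, with 7 reads for Mtmr2 and 5 each for Inpp5a and Pip5k1b.

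Of the 8 hosts in the study's primer table, 5 had a member, beside 401 of the 2503 gene names of the table (16.02%). The study picked these hosts partly for their fold between the same groups, so this count is not independent of the rule. Besides Tlk2 (30 reads), Tcaim (28) and Herc1 (26), these were Susd1 with 29 reads (552 CPM, 385 to 793) and Tbc1d8, a Rab GTPase-activating protein, with 7 (133 CPM, 64.6 to 275). The Tbc1d8 value was only 1.07-fold the Sham limit, and its interval reached below that limit. Another Tbc1d8 junction had 16 Sham and 76 LPS reads. No Susd1 junction was listed in Sham.

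The tissue label was compared with marker hosts. Lung epithelial markers had circRNAs for 4 of 11 genes, with 60 Sham reads (1574 CPM) and 115 LPS reads (2190 CPM). Of these, Rtkn2 of alveolar type 1 cells held 53 and 112. The surfactant protein genes Sftpc and Sftpd had 5 and 2 reads in Sham and none listed in LPS. Endothelial markers had circRNAs for 3 of 7 genes, with 76 Sham reads (1994 CPM) and 62 LPS reads (1181 CPM), mostly from Vwf. Mesenchymal markers had circRNAs for 3 of 9, with 401 Sham reads (10520 CPM) and 210 LPS reads (4000 CPM), mostly from Eln. Col3a1 had 70 Sham and 2 LPS reads. These differences were not tested. Both libraries thus listed circRNAs of lung cell types, and no member came from these 3 lists. Leukocyte markers had circRNAs for 3 of 9 genes (Itgam, Mrc1 and Csf3r), with 2 Sham reads (52.5 CPM) and 32 LPS reads (609 CPM). Most of these LPS reads, 25, came from the Csf3r member, whose direction the rule fixed, so nothing is read from this sum. Itgam had 3 LPS reads and none listed in Sham, and Mrc1 had 2 Sham and 4 LPS reads. Of 6 neutrophil markers, Csf3r alone had a circRNA, with 25 LPS reads, while S100a8, S100a9, Cxcr2, Mmp8 and Mmp9 had none listed. The part of such cells in the members was not tested.

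Members lay on 22 chromosomes. The share of a chromosome's circRNAs that were members ran from 5.97% (3.06 to 11.3%) on chromosome 19 to 16.8% (11.6 to 23.8%) on chromosome 18, leaving out chromosome Y with 1 of 4. Chromosome 20 had 16.4% (10.99 to 23.8%). The intervals of chromosomes 18 and 20 lay above 9.80%, that of chromosome 6 lay below it (6.16%, 3.88 to 9.64%), and with 22 chromosomes compared and no test, nothing more is read from them.

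Promoter sequence was examined because LPS acts through transcription factors with known motifs. Of 346 single host names of members, 337 matched a gene in the RefSeq table of GRCr8 and 280 had a promoter window of 300 bases there. Both strands were searched for GGGANNTTCC (NF-kB), TGANTCA (AP-1) and GAGGAAGT (PU.1, a factor of myeloid cells). The NF-kB letters were in 6 of the 280 windows, 2.14% (0.986 to 4.59%), beside 1.33% of the windows of all circRNA hosts and 1.29% of all 27457 windows. The PU.1 letters were in 10, 3.57% (1.95 to 6.45%), beside 2.45% and 2.44%. The AP-1 letters were in 10, 3.57% (1.95 to 6.45%), beside 3.84% and 7.33%. For none of these motifs did the members' hosts differ from all circRNA hosts beyond the intervals, and a match describes letters and not a binding site. The sequences given are the match in the host with the most member reads and the PU.1 matches of Vav1 and Ms4a3, genes of blood cells, picked after the matches were seen. The PU.1 letters were also in windows of Sppl2a, Pdzrn3 and Map3k3, whose members had more reads (24, 21 and 20). Epsti1, Mdm2 and Ttc39c had them too, so the PU.1 matches given do not stand for all hosts with a match. The capitals mark the motif, and the sequences run 5′ to 3′ on the strand of the gene, from RefSeq, build GRCr8. They lie at chrX:43973397-43973446 (minus strand), chr9:2248883-2248930 (plus strand) and chr1:217904980-217905027 (minus strand).
Acot9, NF-kB: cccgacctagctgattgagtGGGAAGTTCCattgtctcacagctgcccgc
Vav1, PU.1: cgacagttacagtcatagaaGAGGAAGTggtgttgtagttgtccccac
Ms4a3, PU.1: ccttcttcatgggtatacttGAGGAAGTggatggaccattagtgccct
The members of these hosts had 82, 16 and 9 LPS reads.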

How the data were processed

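The authors deposited 1 table of circRNAs with values headed TPM for both libraries. The deposited values sum to 1000000 in each column and rise in equal steps that do not depend on span, so they were read as CPM of junction reads. Columns were assigned by their names. Reads are the value divided by the step. The members and lists were chosen with earlier results of these data known. Small RNA family names were not counted as host genes, a reading of the plan made after seeing the data. Named members were the 20 with the most reads, the 3 with the most in each list, those of primer table hosts, the 10 hosts with the most reads among those with 2 members, the 3 shortest and 3 longest, and the 6 with the most Sham reads in an end partner or in other junctions of the host. Other than for primer hosts, the rule takes single host names. Some that it takes are not reported here, and members named outside it were chosen after their values were seen. With 1 library per group no test was run. Steps were tested on simulated data. Python 3.11.15, numpy 2.4.6, pandas 2.3.3 and scipy 1.17.1 were used.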

Additional observations from a re-analysis of the deposited data

How the results depend on the processing

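No paired analysis was possible because a group consists of 1 library. The 14 alternative settings, 2 of them chosen after seeing the data, gave 27 values, of which 15 lay within the interval of the value reported or, for counts, within 1.5 times of it. For 2 of the 15, with 0.5 or 1 reads added, this follows from the rule, since every member passes 2-fold by its reads. At a minimum of 10 LPS reads, 227 members were left, 45.2% had a host with another Sham junction, 19.8% shared an end with a Sham-listed circRNA, the median span was 2158 nt and 24.7% spanned at most 500 nt. At 20 reads, 82 were left and 19.5% shared an end. With so few members, the interval of the median span at 20 reads (1316 to 5404 nt) held that of all circRNAs, and the interval of the share with a shared end (12.4 to 29.4%) met it. Of the members, 155 were at least 2-fold above the Sham limit. The share with another Sham junction was 30.2% by overlap of spans, and 58.7% with small RNA names counted as hosts, beside 36.5% and 62.5% over all circRNAs by the same measures. Leaving out 9 names that recur over 5 Mb apart gave 48.9%, beside 54.5% over all circRNAs, an alternative also chosen after seeing the data. The median lower bound of the 20 members with the most reads and a single host name was 5.43-fold, 8.59-fold with a floor of 3 reads for the fill-in, and 7.48-fold when scaled by the median ratio over circRNAs listed in both libraries. The cause of these shifts was not tested beyond what each alternative changes.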

Other observations

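A list of 92 genes known from blood cells was drawn up after the members' names and values had been seen, so its count is a description of these libraries and supports nothing. Of these genes, 33 had 55 circRNAs, and 13 of the 55 were members, 23.6% (14.4 to 36.4%), beside 9.80% of the table. Another 2 were in the mirror set and 12 were listed in both libraries. Summed over the list, circRNAs had 152 reads (3988 CPM) in Sham and 591 reads (11260 CPM) in LPS. The members held 188 of these LPS reads. Laptm5 led with 41 reads, followed by Csf3r with 25 and Itgal with 23. Vav1, a signalling protein of blood cells, had 16 reads and Ms4a3, a gene of granulocyte precursors, had 9. Not all circRNAs of blood cell genes were absent from Sham, as the transcription factor gene Ikzf1 had a circRNA of 46 Sham and 79 LPS reads, and Dock8 one of 24 and 93. More cells and more RNA per cell were not separated, and a link of these circRNAs to cell number was not tested.

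The members rest on 1 library per group and most of them on few reads. The Sham fill-in, taken as 0 or 1 read, does not separate the 2, and 143 members lie at or under the level this reading allows. Host names in the table come as deposited, and 98 members have several. The span counts introns, and the exons inside it were not examined. The circRNA caller is not given in the sources used here.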
